A study of Homo sapiens with 4 samples.

Results

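The APOBEC3 genes encode a family of cytidine deaminases, and all 7 human members (APOBEC3A, APOBEC3B, APOBEC3C, APOBEC3D, APOBEC3F, APOBEC3G and APOBEC3H) were picked out of 20323 genes by matching the Ensembl identifiers of the expression table to these symbols. They were followed in 4 RNA-seq libraries of NK-92, a human natural killer (NK) lymphoma line that depends on interleukin 2, of which 2 libraries came from NK scramble cells and 2 from NK shADAR1 cells. Every library therefore came from cells transduced with a lentiviral hairpin vector, carrying a scrambled sequence in NK scramble and a sequence directed at ADAR in NK shADAR1. Each group was described as 2 independent biological replicates, and the study names shADAR1-2 cells as those sequenced, but the labels call the knockdown libraries shADAR1-1 and shADAR1-2, which are also its names for 2 hairpins, so the labels and the text differ on whether both libraries carry the second hairpin.

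APOBEC3 enzymes convert cytidine to uridine in single-stranded DNA, and some members also act on RNA, whereas ADAR converts adenosine to inosine in double-stranded RNA. The family is best known for restricting retroviruses and endogenous retroelements by mutating their reverse transcripts, and uracil left in nuclear DNA is handled by base excision repair. Several members are known interferon-stimulated genes in myeloid cells and lymphocytes, and APOBEC3A and APOBEC3B are known sources of mutations in tumor genomes.

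The hairpin sequences are shown with their closest match to each member. Each matched ADAR without a mismatch over its 21 bases.
shADAR1-1: gcactggcagtctccgggtgt
shADAR1-2: gccgtgtcccgaggaagtgca
Against the transcripts of the 7 APOBEC3 genes in GENCODE 29, the best ungapped alignment in the sense direction of shADAR1-1 had 8 or 9 mismatches. The best alignment of shADAR1-2 had 6 mismatches for APOBEC3A and APOBEC3B, 7 for APOBEC3F and 8 for the other members. Matches to unrelated transcripts were not counted, so these values do not show that either hairpin resembles the family.

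The libraries held between 37881704 and 39960491 estimated counts, and log2 CPM values (counts scaled to a common library size) of library pairs correlated across genes at r = 0.981 to 0.989, where genes are not independent replicates. Libraries of the same group correlated at r = 0.9814 in NK scramble and 0.9812 in NK shADAR1, and the most alike pair joined the groups. The targeted gene ADAR was at 655 and 682 CPM in NK scramble and at 575 and 482 CPM in NK shADAR1, so both knockdown libraries were below both controls. Its log2 fold change of -0.34 (SE 0.20) was within the error of the fit (unadjusted p = 0.127, adjusted p = 1.00, edgeR). No gene tested had an adjusted p below 0.9997 in this fit. The study reports that qRT-PCR and western blot showed the knockdown in NK-92 cells. All 8 NK marker genes reached at least 1 FPKM (fragments scaled by transcript length and by the mapped fragments of the library) in every library. The B cell markers summed to between 0.541 and 2.46 FPKM with MS4A1 at 0, and the myeloid markers to between 1.43 and 2.74 FPKM with FCN1 and S100A8 at 0. Of the 6 T cell markers, CD3E and TRAC made up nearly the whole sum of 500.1 to 694 FPKM, while CD8A was at 0 and CD3D stayed under 1 FPKM in every library. These are bulk RNA values, in which fewer cells making a transcript and less transcript per cell cannot be told apart.

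APOBEC3G was the most abundant member, followed by APOBEC3B, APOBEC3C, APOBEC3H, APOBEC3D and APOBEC3F, and APOBEC3A was at or near 0. The 7 genes stood in this order in 4 of 4 libraries, and the FPKM ranges of neighbours in the order did not overlap. APOBEC3G (ENSG00000239713), a cytoplasmic enzyme with a pair of deaminase domains that is packaged into HIV-1 particles lacking Vif, was at 209 and 188 FPKM in the NK scramble libraries and at 183 and 186 FPKM in the NK shADAR1 libraries. Its mean of 191 FPKM was higher than that of 98.0% of all genes. APOBEC3B (ENSG00000179750), the member held mainly in the nucleus, was at 100.4 and 105 FPKM in NK scramble and at 97.9 and 111 FPKM in NK shADAR1. The lowest ratio of APOBEC3G to APOBEC3B in a library was 1.67, so the library spread of neither gene reached the other.

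**Figure D1:**
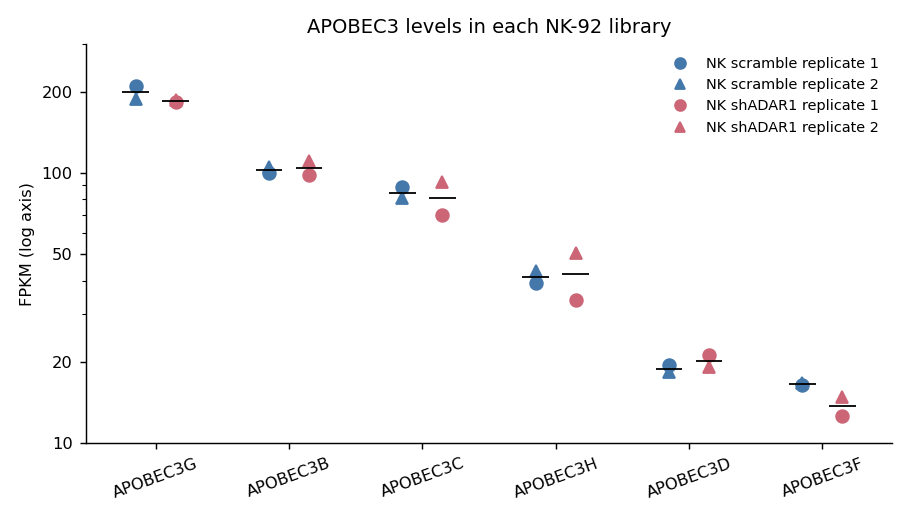
FPKM (log axis) of the 6 expressed APOBEC3 genes, with NK scramble in blue, NK shADAR1 in red, circles for replicate 1, triangles for replicate 2 and black lines for the mean of 2 libraries. The genes descend from APOBEC3G, at a mean of 191 FPKM, to APOBEC3F, at 15.1 FPKM, and on this scale the NK shADAR1 points lie below both controls for APOBEC3G and APOBEC3F and overlap them for the other 4, while APOBEC3A, at 0 in 3 libraries, is not drawn.

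APOBEC3C (ENSG00000244509), a small enzyme with 1 deaminase domain, was at 88.7 and 80.6 FPKM in NK scramble and at 69.9 and 92.4 FPKM in NK shADAR1. This was the closest step of the upper order, with APOBEC3B 1.25-fold higher on average and between 1.13- and 1.40-fold higher in single libraries. APOBEC3H (ENSG00000100298), whose common human haplotypes differ in protein stability, was at 39.3 and 43.3 FPKM in NK scramble and at 33.9 and 50.4 FPKM in NK shADAR1. For both genes the 2 knockdown libraries lay farther apart than the 2 control libraries and enclosed them.

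APOBEC3D (ENSG00000243811) and APOBEC3F (ENSG00000128394), both restriction factors with a pair of deaminase domains, formed the lower end of the expressed members. APOBEC3D was at 19.4 and 18.3 FPKM in NK scramble and at 21.2 and 19.2 FPKM in NK shADAR1. APOBEC3F was at 16.4 and 16.6 FPKM in NK scramble and at 12.6 and 14.9 FPKM in NK shADAR1. The step between them was narrow, with APOBEC3D between 1.10- and 1.67-fold higher in single libraries, and its direction depends on the length correction, since APOBEC3F had the higher CPM in every library (47.9 to 63.6 CPM against 31.7 to 39.7 CPM). Other steps of the order turned without that correction too. In CPM, APOBEC3C was above APOBEC3B and APOBEC3F above APOBEC3H in every library, and APOBEC3D was above APOBEC3H in NK shADAR1 replicate 1. APOBEC3G was the highest member on both scales.

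APOBEC3A (ENSG00000128383), the member known for strong activity and for induction by interferon in monocytes, had estimated counts of 0 and 2.01 in NK scramble and of 0 and 0 in NK shADAR1. A count of 0 allows up to 3 counts, or 0.0552 to 0.0583 FPKM per library for a transcript of its length, and these limits cover counting error only. The mean of APOBEC3F was at least 259.6-fold higher than the highest of these limits. No fold change is given for APOBEC3A, which did not pass the filter on low counts, and both groups were at or under this limit. Other APOBEC genes were similarly low, with APOBEC1, the editor of apolipoprotein B mRNA, listed at 0 in every library, APOBEC2 at no more than 8 counts and APOBEC4 at no more than 1 count.

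The shares of the members in the family follow the FPKM order in every library by construction. APOBEC3G held 39.2 to 44.2% of the summed FPKM of the 7 genes, APOBEC3B 21.2 to 23.5%, APOBEC3C 16.7 to 19.5% and APOBEC3H 8.11 to 10.6%. APOBEC3D and APOBEC3F held 4.05 to 5.06% and 3.02 to 3.68%. The summed FPKM was 473 and 452 in the NK scramble libraries against 418 and 474 in the NK shADAR1 libraries. The knockdown libraries thus enclosed the controls, at the upper end only by 473.617 against 473.453 FPKM. The group means were 463 ± 15.015 and 446 ± 39.2 (SD, n = 2 each), and they did not differ beyond the spread of the libraries (two-sided exact permutation test, p = 1.00, where the smallest p that 2 against 2 libraries allow is 0.333). Summed TPM (FPKM rescaled to the same total in every library) was 861 and 777 in NK scramble against 759 and 794 in NK shADAR1. On that scale the controls were not enclosed, since NK scramble replicate 1 was highest (same permutation test, p = 0.667).

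In GENCODE 29 (GRCh38, which may not be the authors' build) the family forms 1 cluster of 151.3 kb on the plus strand of chromosome 22, from base 38952741 to base 39104067, between CBX6 and CBX7. The order along the chromosome is A, B, C, D, F, G, H, and the levels did not follow it. APOBEC3G (39077005 to 39087743) was the highest member and its neighbour APOBEC3F (39040604 to 39053910) the lowest of the expressed ones, with mean FPKM of 191 and 15.1. APOBEC3B (38982347 to 38992804) was at a mean of 104 FPKM, although the annotated span of the nearly silent APOBEC3A (38952741 to 38992778) overlaps it. An antisense gene, APOBEC3B-AS1, also overlaps APOBEC3B, and since strand use in counting is not stated, its reads cannot be told apart from those of APOBEC3B. Around the cluster, 7 of 10 neighbouring genes were tested and 0 of them had groups that did not overlap, against 26.0% of all genes tested. So few genes do not set the locus apart. Among them, the ribosomal protein gene RPL3 was at a mean of 2146 FPKM and the Polycomb subunit gene CBX7 at 1.53 FPKM, with log2 fold changes of 0.04 and 0.48.

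The members are paralogs, and part of their transcript sequence is identical. Of the 100-base runs in the protein-coding transcripts of APOBEC3B, 26.3% were also present in another member (APOBEC3A, APOBEC3D or APOBEC3F). The share was 23.6% for APOBEC3A, 11.97% for APOBEC3F, 11.3% for APOBEC3G and 8.73% for APOBEC3D, and it was 0 for APOBEC3C and APOBEC3H. The estimated counts showed the same division, being whole numbers in 4 of 4 libraries for APOBEC3C and APOBEC3H and in 0 of 4 for APOBEC3B, APOBEC3D, APOBEC3F and APOBEC3G (tolerance 0.005). Over all genes with a count above 0, of which there were 15617, 3285 had a count that was not whole in some library. The split of reads within the family is therefore uncertain for APOBEC3A, APOBEC3B, APOBEC3D, APOBEC3F and APOBEC3G, and no run of this length was shared by APOBEC3C or APOBEC3H. APOBEC3D also shared 2022 of 2554 runs with an overlapping annotated gene, ENSG00000284554, which was listed at 0 in every library.

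The length behind each FPKM value was not the same in every library. Dividing the estimated count by FPKM and by the library total gave 1.56 kb for APOBEC3G in all libraries and 1.59 to 1.60 kb for APOBEC3B. For APOBEC3D the implied length ranged from 1.68 to 2.07 kb and for APOBEC3F from 3.55 to 4.005 kb, above the longest APOBEC3F transcript of GENCODE 29 (2.69 kb). It ranged from 2.42 to 2.57 kb for APOBEC3C and from 0.942 to 1.03 kb for APOBEC3H. FPKM values of these 4 genes thus carry a length that changed from library to library. For APOBEC3D the direction of the group difference turned with the scale, at -0.01 on the log2 scale from counts and at 0.10 from FPKM with a pseudocount of 0.1, and for APOBEC3H it turned from -0.03 to 0.03.

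Whether the knockdown of ADAR changed any APOBEC3 gene was asked with the quasi-likelihood test of edgeR over 11810 genes, of which 6 were members, since APOBEC3A did not pass the filter on low counts. None of the 6 passed the test. By the call rule (a 1.5-fold or larger change at an adjusted p under 0.05) 0 of 6 members were called, and 0 of all genes tested were called, a background of 0%. At an unadjusted p under 0.05, 0 of 6 members passed against 2.48% of all genes. By the call rule DESeq2 also called 0 genes. The study does report differentially expressed genes from DESeq2 at these thresholds, and the source of this difference was not tested. The CPM values of the groups overlapped for 6 of 6 members, whereas 26.0% of all genes tested had groups that did not overlap. In FPKM, which was not tested, both knockdown libraries were below both controls for APOBEC3G and APOBEC3F, and the other 4 overlapped.

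APOBEC3F had the largest difference of the members, from 63.6 and 60.1 CPM in NK scramble to 47.9 and 61.4 CPM in NK shADAR1, a log2 fold change of -0.18 (SE 0.21, 95% interval -0.64 to 0.28, adjusted p = 1.00). Only 1 of the 2 knockdown libraries was below the controls. APOBEC3G followed at 324 and 299 CPM against 275 and 299.8 CPM, a log2 fold change of -0.12 (SE 0.19, interval -0.54 to 0.31). Its knockdown libraries also fell on either side of the lower control.

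The other members lay close to 0. APOBEC3B was at 159 and 171 CPM in NK scramble and at 151 and 183 CPM in NK shADAR1, a log2 fold change of 0.02 (SE 0.20, interval -0.42 to 0.45). APOBEC3C was at 213 and 210.5 CPM against 169 and 245 CPM, with a log2 fold change of -0.03 (SE 0.22, interval -0.52 to 0.46). In both genes the knockdown libraries lay on both sides of the controls. APOBEC3H was at 40.3 and 42.6 CPM against 32.2 and 49.0 CPM, with a log2 fold change of -0.03 (SE 0.23, interval -0.55 to 0.49). APOBEC3D was at 39.7 and 31.7 CPM against 34.2 and 36.8 CPM, with a log2 fold change of -0.01 (SE 0.21, interval -0.47 to 0.45). Here it was the controls that enclosed the knockdown libraries.

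For 5 of the 6 members the absolute log2 fold change was below the median of all genes tested, 0.15. A rise of 1.5-fold lay above the upper bound of the interval for each of the 6 members (1.22- to 1.41-fold), and a fall of that size lay within the interval of APOBEC3F alone, whose lower bound was a fold change of 0.643. Leaving out 1 library turned the sign for APOBEC3B, APOBEC3C, APOBEC3D and APOBEC3H, and without NK shADAR1 replicate 1 or replicate 2 the log2 fold change of APOBEC3H was 0.24 or -0.36.

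**Figure D2:**
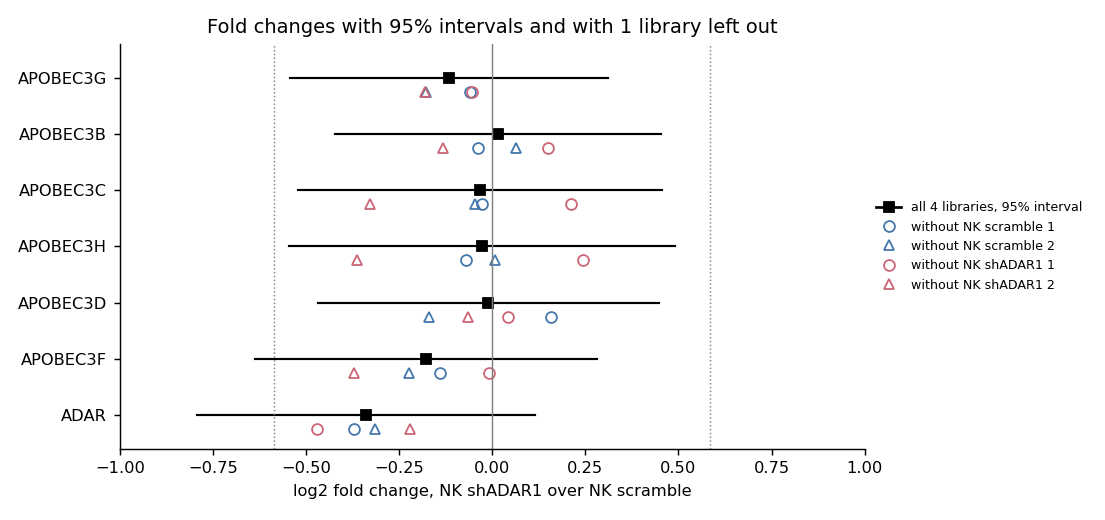
Log2 fold change of NK shADAR1 over NK scramble for the 6 tested APOBEC3 genes and ADAR: black squares and lines are the estimate and 95% interval from 4 libraries, open symbols below them the estimate with 1 named library left out, and dotted lines mark a 1.5-fold change. Each interval includes 0, and leaving out either NK shADAR1 library moves APOBEC3C and APOBEC3H to opposite sides of 0.

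The 2 knockdown libraries differed from each other in 1 direction for the whole tested family. On the log2 CPM scale, 6 of 6 tested members were higher in NK shADAR1 replicate 2 than in replicate 1, by 0.60 for APOBEC3H, 0.54 for APOBEC3C, 0.36 for APOBEC3F, 0.28 for APOBEC3B, 0.12 for APOBEC3G and 0.11 for APOBEC3D. As ratios, APOBEC3H was 1.52-fold and APOBEC3C 1.45-fold higher. Between the NK scramble libraries, 2 of 6 members were higher in replicate 2, and the corresponding ratios were 1.06 for APOBEC3H and 0.989 for APOBEC3C. Over all genes tested, 49.4% were higher in replicate 2, the median difference between the knockdown libraries was -0.01 and the median absolute difference 0.27. The differences of APOBEC3G and APOBEC3D were below that absolute median. The shared direction of the members is a difference between 2 single libraries, with no replicate of its own.

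ADAR itself was lower in NK shADAR1 replicate 2, by a ratio of 0.838, and a relation of ADAR RNA to that of the 6 APOBEC3 genes was not tested. Length moved with the same pair of libraries: the median log2 difference of replicate 2 over replicate 1 was 0.18 for 2322 genes with an implied length under 1.5 kb, 0.03 for 4603 genes of 1.5 to 3 kb and -0.12 for 4885 longer genes. APOBEC3H is in the first class, APOBEC3B, APOBEC3C, APOBEC3D and APOBEC3G in the second and APOBEC3F in the last. The part of length in the members' difference was not tested.

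A list of 21 interferon-stimulated genes, which earlier results of these data had already shown to be low in the knockdown, moved the other way between these libraries. All 21 were lower in NK shADAR1 replicate 2 than in replicate 1, with a median log2 difference of -1.42, against a median of 0.32 for the 6 APOBEC3 genes. IFI6, an interferon-induced mitochondrial protein gene, was at 341 and 239 FPKM in NK scramble and at 171 and 97.6 FPKM in NK shADAR1. MX1, an antiviral GTPase, was at 206 and 184 FPKM against 109 and 21.1 FPKM, and IFI44L was at 41.4 and 32.6 FPKM against 17.0 and 2.21 FPKM. All 3 were below both controls in both knockdown libraries and lowest in replicate 2.

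Between the groups, 17 of the 21 interferon-stimulated genes had NK shADAR1 values below both controls without overlap, against 12.6% of all genes tested and 0 of 6 APOBEC3 genes. The median log2 fold change was -1.05 for the list and -0.03 for the family. In the list 10 genes had an unadjusted p under 0.05, and 0 genes passed the adjusted threshold. The list's median was -0.39 without NK shADAR1 replicate 2 and -1.76 without replicate 1, and that of the family was -0.25 and 0.10. No test of the difference between the family and the list was run.

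**Figure D3:**
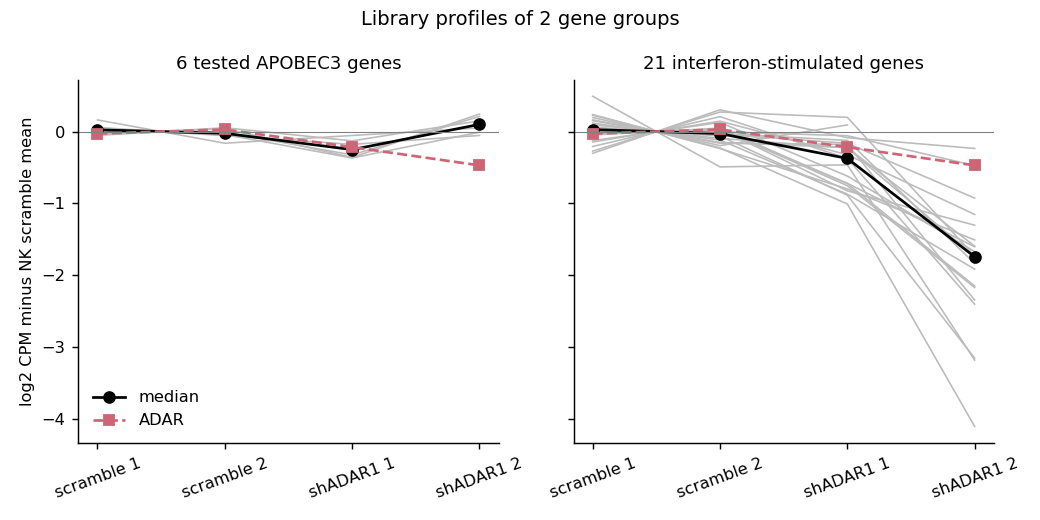
Log2 CPM of each gene minus its NK scramble mean in the 4 libraries (grey, single genes; black, median; red dashes, ADAR) for the 6 tested APOBEC3 genes (left) and 21 interferon-stimulated genes (right), where a line that stops belongs to a gene at 0 CPM in the last library. From NK shADAR1 replicate 1 to replicate 2 the APOBEC3 genes go up, by a median of 0.32, and the interferon-stimulated genes go down, with a median of -1.42.

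The promoter table from RefSeq (GRCh38.p14) held 1 of the 7 members, APOBEC3H, as 250 bases before to 50 bases after the start site. It was searched on both strands for the interferon regulatory factor site AANNGAAA and the interferon gamma activated site TTCNNNGAA. APOBEC3H held the regulatory factor site and not the activated site. The match was on the gene's strand and on the transcribed side of the start site, with its first base at position 29. It is printed with 30 bases of context, chr22:39097262-39097291 on the plus strand, with the match in capitals.
APOBEC3H: gagctgccaaAAGTGAAActtagtgcctca
This short motif was present in 22.8% of 35116 promoters. In the interferon-stimulated list, 14 of 16 genes with a promoter held it in at least 1 of their promoters, a count per gene that is not on the same footing. The activated site was present in 7.7% of all promoters and, counted per gene, in 5 of these 16 genes. A match gives the letters in this window and not a site in use.

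Genes around the family were described as lists, chosen with earlier results known. Counts and medians come from the fit of single genes, and no list was tested as a whole. Among 16 tested regulators described for the APOBEC3B promoter (the DREAM complex and E2F genes, B-MYB and FOXM1, non-canonical NF-kappa B and p53), 2 had an unadjusted p under 0.05, both lower, against 2.48% of all genes tested, and the median log2 fold change was -0.05. RELB, the transcription factor of the non-canonical NF-kappa B pathway, was at 11.4 and 11.2 FPKM in NK scramble and at 8.19 and 5.92 FPKM in NK shADAR1, a log2 fold change of -0.70 (SE 0.22, unadjusted p = 0.00933, adjusted p = 1.00, edgeR). Its partner NFKB2 was at 26.3 and 24.8 FPKM against 15.4 and 19.3 FPKM, with a log2 fold change of -0.57 (SE 0.21). APOBEC3B, at 0.02, had groups that overlapped, while those of both NF-kappa B genes did not. The most abundant genes of this list, the E2F partner TFDP1 and the chromatin subunit RBBP4, had log2 fold changes of -0.07 and 0.10.

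CBFB and the cullin-5 ligase, the host proteins that HIV-1 Vif takes over to degrade APOBEC3 enzymes, all passed the filter on low counts. Of 8 genes, 3 were lower and 1 higher in NK shADAR1 without overlap of the groups, against 26.0% of all genes tested in either direction and 12.6% lower, and 0 had an unadjusted p under 0.05. CBFB was at 87.2 and 88.9 FPKM against 87.9 and 73.1 FPKM, and the ligase adaptor ELOB at 97.7 and 110 FPKM against 134 and 126 FPKM. The log2 fold changes were -0.23 (SE 0.20) and 0.28 (SE 0.21). In CPM the groups of CBFB did not overlap, while in FPKM they did. NEDD8, the ubiquitin-like activator of cullins, followed the replicate number more than the group, at 89.8 and 181 FPKM against 116 and 194 FPKM.

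Of 12 genes for removal or avoidance of uracil in DNA, 5 were higher and 7 lower, and 0 had an unadjusted p under 0.05. The most abundant were DUT, the dUTPase that keeps uracil out of DNA, at a mean of 188 FPKM, and APEX1, the nuclease for sites left without a base, at 166 FPKM. Their log2 fold changes were -0.11 and -0.04. MBD4, a mismatch-specific glycosylase, and REV1, a translesion polymerase, had the largest differences of the list, at 0.19 and 0.24, and their groups overlapped.

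Among 16 other restriction factors of retroviruses and retroelements, 4 were lower and 1 higher in NK shADAR1 without overlap of the groups, against 12.6% lower and 26.0% in either direction over all genes tested, with a median log2 fold change of -0.08 that was 0.00 without NK scramble replicate 2 and -0.17 without NK scramble replicate 1. BST2, the tetherin that holds virions at the cell surface, was at 366 and 383 FPKM in NK scramble and at 260 and 293 FPKM in NK shADAR1, a log2 fold change of -0.44 (SE 0.20, unadjusted p = 0.0501). MX2, an inhibitor of HIV-1 nuclear import, was at 1.49 and 0.872 FPKM against 0.418 and 0.015 FPKM, and TRIM22 was at 12.9 and 13.5 FPKM against 11.03 and 5.55 FPKM. BST2, MX2, TRIM22 and IFI16, a DNA sensor, are also interferon-stimulated genes. Unlike the others, IFI16 was not lower, at 218 and 157 FPKM against 279 and 158 FPKM. Its log2 fold change was 0.20 (SE 0.28), with groups that overlapped.

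The genes with the profile most like a member were found by the root mean square difference of log2 CPM, after subtracting each gene's mean, over 4 libraries and 8491 genes with a mean of at least 10 CPM. For APOBEC3G they were ARHGAP17, STOML2 and PIAS4, at 0.0103, 0.0105 and 0.0109, and 279 genes were within 0.05. For APOBEC3F they were PDIA4, CCDC51 and SLC39A11, at 0.0091, 0.0107 and 0.0107, and 151 genes were within 0.05. With 4 libraries many genes share such a profile, and the same libraries set depth and scaling for all of them.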

How the data were processed

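Poly(A) RNA of NK-92 cells was sequenced on a NovaSeq instrument in 4 libraries, grouped by the labels as 2 NK scramble and 2 NK shADAR1. The authors deposited estimated counts per gene, not normalized, and FPKM values, which scale them by transcript length and mapped fragments. The submitters' processing notes name fastp 0.18.0. The aligner, counter, genome build and annotation are not given in the sources used here. The authors tested with DESeq2.

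Of 20323 genes, 20301 matched a symbol. Estimated counts were rounded, and the filterByExpr function of edgeR 4.0.16 (R 4.3.3, minimum count 10) left 11810 genes, for which TMM factors and quasi-likelihood F tests were computed with Benjamini-Hochberg adjustment. Calls needed a 1.5-fold or larger change at an adjusted p under 0.05. SE is the log2 fold change divided by the square root of F. CPM uses TMM library sizes. Scripts were tested on simulated data. Members and gene lists were chosen with earlier results of these data known. Named genes were the members, ADAR, the 2 most abundant and the 2 most changed tested genes of each list, and the 3 nearest profiles of the highest and the most changed member. Levels of genes were compared in FPKM, and in CPM where CPM is named. Log2 fold changes came from the counts and overlap of groups from CPM, also where FPKM values are printed beside them, except where FPKM is named for the comparison. Alternatives were DESeq2 1.42.0, upper quartile or RLE factors, keeping every gene with 1 count, a replicate block, each library left out, unadjusted p, no fold threshold, summed TPM, and FPKM with pseudocounts of 0.1 and 1. Promoters came from RefSeq, and transcripts from GENCODE 29. Protein features were not analysed here, and 1 gene of a list is not reported here. P-values measure the spread between libraries only, which edgeR moderates with the spread of all genes tested (10.29 total degrees of freedom). Depth (37881704 to 39960491 counts) limits genes near 0.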

Additional observations from a re-analysis of the deposited data

How the results depend on the processing

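No member passed either threshold under any alternative with a test: over 54 values with a p the smallest unadjusted p was 0.186 and the smallest adjusted p 0.979. Over 66 values, which include 2 untested FPKM settings for each member, the largest absolute log2 fold change was 0.37. Members here are the 6 genes tested in the fit as reported. APOBEC3A did not pass the filter of that fit and is not among these values, also where a setting kept it. The sign turned in 12 of the 66. From FPKM with pseudocounts of 0.1 and 1, APOBEC3D was at 0.0964 and 0.0921 and APOBEC3H at 0.0301 and 0.0295, and with upper quartile scaling APOBEC3D was at 0.0009. With 1 library left out, log2 fold changes ranged from -0.1328 to 0.1496 for APOBEC3B (turned without NK scramble replicate 1, -0.0392, and NK shADAR1 replicate 2), from -0.3277 to 0.2124 for APOBEC3C, from -0.1689 to 0.1586 for APOBEC3D, from -0.3637 to 0.2447 for APOBEC3H, from -0.3708 to -0.0084 for APOBEC3F, from -0.1817 to -0.0538 for APOBEC3G and from -0.4702 to -0.2196 for ADAR. List medians ranged from -0.2547 to 0.0963 for the APOBEC3 genes, from -0.0769 to 0.0930 for uracil repair, from -0.2538 to 0.0507 for CBFB and the cullin-5 ligase, from -0.0670 to 0.0094 for the APOBEC3B regulators, from -0.1730 to 0.0018 for the restriction factors, from -1.7591 to -0.3914 for the interferon-stimulated genes and from -0.1361 to 0.0408 for the locus neighbours, and the APOBEC3B regulators were at -0.0054 and -0.0049 from FPKM. The number of genes called among all tested was 0 in the fit as reported, with DESeq2 (289 of 15605 genes at an unadjusted p under 0.05, smallest adjusted p 0.146), with either other scaling, without the filter and without the fold threshold. It was 213 by unadjusted p, and from 1 to 47 with 1 library left out (1 without NK shADAR1 replicate 2, 47 without NK scramble replicate 1, 2 without NK scramble replicate 2, 16 without NK shADAR1 replicate 1). The lone library of a group is then assumed to vary like the other group. The cause was not tested. With the replicate number as a block 13 genes were called and 681 had an unadjusted p under 0.05, and members ranged from -0.1883 (APOBEC3F) to 0.0101 (APOBEC3B). The labels do not say that a number marks shared material, and deviations of same-numbered libraries correlated at 0.308 over only 2 pairs. Depth limits what can be said of APOBEC3A.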
